A study of Mus musculus with 10 samples.

Results

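The genes described here were the transcription factor gene Nfe2l2 (which encodes NRF2), its inhibitor Keap1, its competitor Bach1, and the direct redox targets Nqo1, Hmox1 and Srxn1. These 6 genes were taken by symbol from a table of 24537 genes, and all 6 were found. RNA had been sequenced from heart tissue of mice 6 weeks old, 5 control and 5 iSOD2. C57BL/6J dams had been bred with iSOD2 males, and all mice of both groups had been exposed in utero to doxycycline through the dam's chow and carried 1 copy of the transactivator (Rosa26-rtTA2+/-). The iSOD2 mice also carried 1 copy of a short hairpin RNA (shRNA) against Sod2 behind a tetracycline response element (TRE-SOD2-shRNA+/-), and the controls carried none (TRE-SOD2-shRNA-/-). The transactivator was driven by the Rosa26 promoter, so the hairpin was not restricted to the heart or to cardiomyocytes, and it was induced in embryogenesis only. By sex there were 3 male and 2 female controls and 2 male and 3 female iSOD2 mice, and litters A and B gave 2 and 3 mice to each genotype. The question these genes address is whether the NRF2 pathway was altered, as RNA, in adult hearts after a transient mitochondrial superoxide stress before birth.

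NRF2 is held in the cytoplasm by KEAP1, which presents it to a CUL3-RBX1 ubiquitin ligase for degradation. Oxidants and electrophiles modify cysteines of KEAP1, and newly made NRF2 then escapes, enters the nucleus and binds antioxidant response elements as a partner of small MAF proteins. BACH1 occupies the same elements with the same partners and represses them until heme displaces it. NQO1 is a quinone reductase, HO-1 (the product of Hmox1) breaks heme down to biliverdin, iron and carbon monoxide, and SRXN1 (sulfiredoxin) repairs overoxidized peroxiredoxins. Because NRF2 is controlled mainly through the stability of the protein, the RNA level of Nfe2l2 need not follow its activity, and the RNA of the targets is the usual transcript readout.

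Each library held between 16448090.5 and 24263085.5 counts in genes. Sod2, which encodes the mitochondrial matrix superoxide dismutase, had 9562 to 11305 normalized read counts in the 10 hearts, with 10573 ± 588 in controls and 10781 ± 449 in iSOD2 mice (mean ± SD, n = 5 each). Its log2 fold change was 0.03 (DESeq2, adjusted p = 0.806), and since the hairpin was no longer induced at this age, Sod2 could not check the genotype labels. Cardiomyocyte markers (Myh6, Tnnt2, Tnni3, Actc1, Ryr2, Myl2) summed to 1418715 to 1759198 normalized read counts per library, and all 6 were detected in every heart. Hepatocyte markers stood apart between libraries: their sum ran from 85.0 to 8594 in controls and from 4263 to 17945 in iSOD2 mice, and albumin alone from 47.9 in control 1 to 14601 in iSOD2 10. The mean log2 level of that list was 1.97 higher in iSOD2 mice (exact permutation p = 0.0238, two-sided), and the counts of genes called are given below with and without those 2 libraries.

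The promoters of the members were read for antioxidant response elements. Windows from 250 bases before to 50 bases after the start of transcription came from RefSeq (build GRCm38.p6), which gave an entry for 5 of the 6 members, all but Hmox1. Searched on both strands, the element core TGACNNNGC was in 12.4% of 32851 such windows over all genes, the variant TGAGNNNGC in 17.6%, and the AP-1-type heptamer TGAGTCA, which can overlap that variant, in 5.20%. Nfe2l2 held 1 match to TGACNNNGC, on the strand of the gene, 240 bases before the start. Srxn1 held TGAGTCA at 2 places, 102 and 45 bases before the start, and the second was also a match to TGAGNNNGC. Only 0.222% of the windows held TGAGTCA at 2 or more places. Srxn1 also had TGAGNNNGC on the other strand 158 bases before the start, and TGACNNNGC on the other strand just downstream of it. The windows of Keap1, Bach1 and Nqo1 held none of the 3 motifs. Sequence further than 250 bases before the start was not read, so elements outside the windows could not be seen for any member. The stretches with the matches are printed because they are where the members differed by sequence, with the match in capitals, 5′ to 3′ on the strand of the gene. The first runs from 250 to 211 bases before the start of Nfe2l2 (chr2:75704874-75704913, minus strand) and the second from 112 to 33 bases before the start of Srxn1 (chr2:152105412-152105491, plus strand).
Nfe2l2: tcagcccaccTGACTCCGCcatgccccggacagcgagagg
Srxn1: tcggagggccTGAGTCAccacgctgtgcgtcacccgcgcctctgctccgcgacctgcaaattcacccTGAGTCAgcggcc

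A match of letters is a description of these windows and was not a measurement of binding.

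Levels were compared between genes per kilobase of exon, using the exon length in the table. Nqo1 was the highest of the 6, with a mean of 589 normalized reads per kb over the 10 hearts, which placed it at percentile 90.2 of the 17746 genes tested. Nfe2l2 followed at 522 (percentile 88.8), then Keap1 at 271 (percentile 78.3) and Bach1 at 239.6 (percentile 75.6). Srxn1, at 123 (percentile 59.6), and Hmox1, at 85.0 (percentile 51.5), were near the middle of the tested genes. The inducer therefore had more RNA per kb than either its inhibitor or its competitor, while the targets spanned both ends of the order. Nfe2l2 exceeded Keap1 in 10 of 10 hearts, by 1.93 times on average, and their ranges did not overlap. Bach1 exceeded Srxn1 in 10 of 10, by 1.95 times, again with no overlap. Nqo1 exceeded Nfe2l2 within 9 of the 10 hearts, and Keap1 exceeded Bach1 within 9 of 10, with ranges over hearts that overlapped in both pairs. The order in these pairs was not the same in every heart, and it was not tested. Srxn1 exceeded Hmox1 within each of the 10 hearts, by 1.45 times on average, although the ranges over hearts overlapped. TPM values, which scale each library to the same total per exon length, gave the same order.

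**Figure D1:**
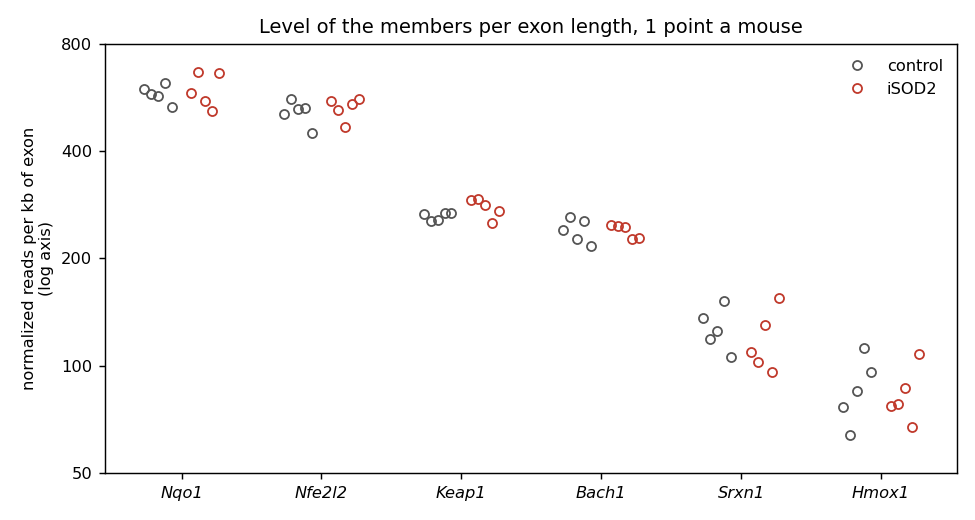
Normalized reads per kilobase of exon on a log axis for each of the 6 genes, with 1 point a mouse, control in grey and iSOD2 in red. Nqo1 and Nfe2l2 lie together at the top, Keap1 and Bach1 in the middle and Srxn1 and Hmox1 at the bottom, and control and iSOD2 points overlap in every gene.

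None of the 6 genes differed between genotypes by the call used here (DESeq2 adjusted p at most 0.05 and absolute log2 fold change above 0.25). All 6 passed the filter on low counts, and 5 received an adjusted p, since DESeq2 set that of Hmox1 aside for its low mean count. By comparison, 281 of 9489 genes with an adjusted p were called, or 2.96%, so that a count of 0 among 5 genes was near the background. Of the 6 fold changes, 3 were above and 3 below 0, with a median of 0.015 (log2) against a median of -0.0016 over all genes tested. At an unadjusted p under 0.05, 0 of the 6 passed, against 13.2% of all genes. By edgeR, 0 of the 6 and 0 of all genes were called, and 2723 of all genes had an unadjusted p under 0.05. In every one of the 6 genes the control and iSOD2 ranges overlapped, whereas the groups did not overlap in 3.74% of all genes. RNA came from bulk heart tissue, so fewer cells of a type and less RNA per cell could not be told apart in any of these values.

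**Figure D2:**
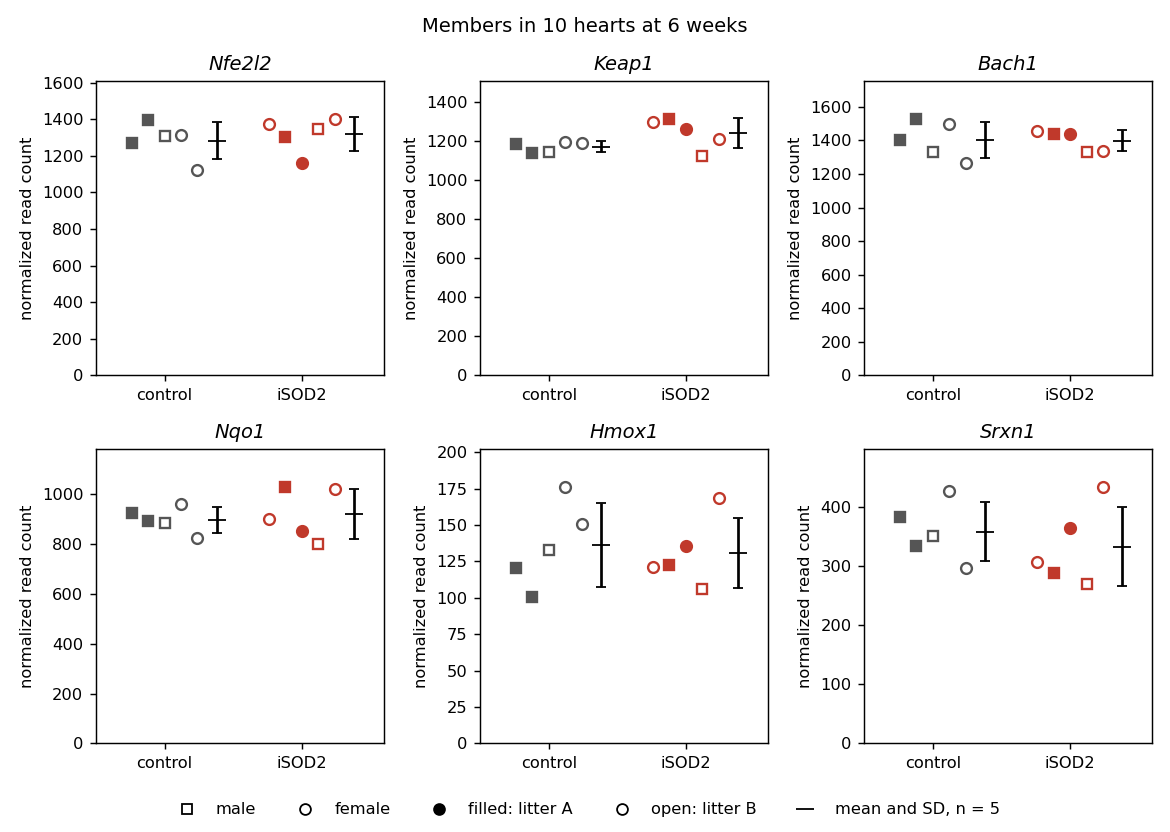
Normalized read counts of the 6 genes in each of the 10 hearts, control in grey and iSOD2 in red, squares for males and circles for females, filled for litter A and open for litter B, with mean and SD (n = 5) beside each group. All axes start at 0. The groups overlap in every gene, Keap1 has the tightest controls (SD 27.8), and Hmox1 and Srxn1 have the widest relative spread.

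Nfe2l2 (NM_010902, chr2:75675513-75704663, minus strand, mm10, 2490 bases of exon) had 1269.7, 1397, 1307, 1316 and 1121 normalized read counts in controls 1, 2, 3, 4 and 6. In iSOD2 mice 5, 7, 8, 9 and 10 it had 1376, 1302, 1163, 1348 and 1399. Of the iSOD2 hearts 4 were inside the control range, and iSOD2 10, at 1399, was just above the highest control. The means were 1282 ± 101 and 1318 ± 93.6 (SD, n = 5 each). On the log2 scale iSOD2 exceeded control by 0.04 (SE 0.07, 95% interval -0.10 to 0.18, DESeq2 adjusted p = 0.803). An exact permutation test over all arrangements of the mice gave p = 0.556, where the smallest p it can give is 0.00794. The interval for the RNA of NRF2 reached from a fall of 6.74% to a rise of 13.4%.

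Keap1 (NM_016679, chr9:21229730-21239332, minus strand, 4463 bases of exon) had 1187, 1139, 1146, 1197 and 1194 normalized read counts in the controls, in the same order of mice. The iSOD2 hearts had 1300.4, 1313, 1264, 1123 and 1214. In iSOD2 mice 4 hearts were above all 5 controls and the remaining heart, iSOD2 9, was below all of them. The means were 1172 ± 27.8 and 1243 ± 77.1 (SD, n = 5 each), and the log2 fold change was 0.08 (SE 0.06, 95% interval -0.03 to 0.19, DESeq2 adjusted p = 0.416). The exact permutation test gave p = 0.103. Without iSOD2 9 the log2 fold change was 0.12 (DESeq2, unadjusted p = 0.0253, adjusted p = 0.171), so 1 mouse decided whether the unadjusted p was under 0.05, and neither fit called the gene. The 5 control hearts were closer to each other in Keap1 than in any other of the 6 genes, with a coefficient of variation of 2.37% against 6.21% in iSOD2 hearts. Counting error alone would give about 2.86%.

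Bach1 (NM_007520, chr16:87698954-87733346, plus strand, 5851 bases of exon) had 1404, 1526, 1329, 1495 and 1269 normalized read counts in controls. The iSOD2 hearts had 1454, 1440.1, 1437, 1329 and 1338. All 5 iSOD2 hearts were inside the control range, which was the wider. The means of 1405 ± 108 and 1399.5 ± 61.1 (SD, n = 5 each) differed by -0.0050 on the log2 scale (SE 0.06, 95% interval -0.13 to 0.12, DESeq2 adjusted p = 0.977, exact permutation p = 0.944). The RNA of the repressor therefore had the smallest genotype difference of the 6 genes.

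Nqo1 (NM_008706, chr8:107388225-107403205, minus strand, 1544 bases of exon) had 926, 895, 884, 962 and 824 normalized read counts in controls and 900.2, 1029, 852, 802 and 1024 in iSOD2 hearts. Among iSOD2 hearts 2 (mice 7 and 10) were above all controls and 1 (mouse 9) was below all of them, so the iSOD2 group was the wider on both sides. The means were 898 ± 51.5 and 921 ± 102 (SD, n = 5 each), 0.04 apart on the log2 scale (SE 0.08, 95% interval -0.12 to 0.19, DESeq2 adjusted p = 0.855, exact permutation p = 0.690). The coefficient of variation was 5.74% in controls and 11.1% in iSOD2 hearts, where counting error would give about 3.30%.

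Hmox1 (NM_010442, chr8:75093618-75100593, plus strand, 1569 bases of exon) was the scarcest of the 6, with 83.5 to 179 raw counts per library. The controls had 120.3, 100.3, 133, 176 and 151 normalized read counts, and the iSOD2 hearts had 121, 122, 136, 106 and 169. All 5 iSOD2 hearts were inside the control range. The means were 136 ± 28.9 and 131 ± 23.8 (SD, n = 5 each), and iSOD2 minus control was -0.06 in log2 units (SE 0.17, 95% interval -0.39 to 0.27, DESeq2 unadjusted p = 0.716, no adjusted p, exact permutation p = 0.794). The coefficient of variation was 21.2% in controls and 18.2% in iSOD2 hearts against 8.60% from counting, so most of the spread in this gene was between mice.

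Srxn1 (NM_029688, chr2:152105524-152111376, plus strand, 2808 bases of exon) had 383, 334, 351, 428 and 297 normalized read counts in controls. The iSOD2 hearts had 307, 288, 365, 270.0 and 434. Among iSOD2 hearts 2 (mice 7 and 9, both male) were below all controls and 1 (mouse 10) was above all of them. The means were 359 ± 49.3 and 333 ± 66.7 (SD, n = 5 each). In log2 units iSOD2 minus control was -0.11 (SE 0.14, 95% interval -0.38 to 0.16, DESeq2 adjusted p = 0.711, exact permutation p = 0.444). This was the largest absolute genotype difference of the 6, and it was smaller than its own standard error. The coefficient of variation was 13.8% in controls and 20.04% in iSOD2 hearts, against 5.34% from counting.

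The precision of these comparisons differed by gene. For Nfe2l2, Keap1, Bach1 and Nqo1 the whole 95% interval lay within 0.25 on either side of 0 (log2), the size the call asks for. For Hmox1 and Srxn1 it did not: the interval for Hmox1 allowed a rise of 20.3% or a fall of 23.5%, and that for Srxn1 a rise of 11.7% or a fall of 22.9%. For Hmox1 a rise or a fall as large as the threshold was inside the interval, and for Srxn1 only a fall of that size was. Whether these mice could have detected such a difference was not tested.

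Fold changes across all genes followed exon length (Spearman's rho = -0.47 over 12151 genes, a description across genes, which are not independent), with shorter genes higher in iSOD2 hearts. After that trend was removed from each library, the log2 fold changes were 0.01 for Nfe2l2, 0.13 for Keap1, 0.07 for Bach1, -0.06 for Nqo1, -0.15 for Hmox1 and -0.12 for Srxn1. The signs of Bach1, whose 5851 bases of exon are the most of the 6, and of Nqo1, with the fewest, were reversed by it. None of the 6 was called in that fit either, where 1.31% of genes were, and the lowest adjusted p was that of Keap1 (DESeq2, 0.310, unadjusted p = 0.0249, 95% interval 0.02 to 0.25).

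The genotype comparison was also made within each sex and litter, with 2 or 3 mice a group. Groups this small can easily separate by chance. The share of all genes without overlap in these splits was not computed, so a lack of overlap is only described. Between the sexes Srxn1 had the largest difference in fold change of the 6. In males it had 279 ± 12.7 normalized read counts in the 2 iSOD2 hearts and 356 ± 24.5 in the 3 controls, with no overlap, and a log2 fold change fitted at -0.35 (SE 0.15, DESeq2 unadjusted p = 0.0201, no adjusted p). In females the values were 369 ± 63.2 in 3 iSOD2 hearts and 363 ± 92.1 in 2 controls, and the fold change was 0.02 (log2, SE 0.20). The test of the difference between the sexes (genotype-by-sex interaction in DESeq2) gave 0.38 (SE 0.26, unadjusted p = 0.147, not past the threshold after adjustment), so the male difference was not shown to be particular to males. Of all genes 0.0% were called for that interaction and 1.18% had an unadjusted p under 0.05, and the other 5 members had interaction p of 0.495 or higher.

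Nfe2l2 and Hmox1 had opposite signs in the litters. Nfe2l2 was 1374 ± 25.4 in 3 iSOD2 hearts against 1248 ± 109.8 in 3 controls of litter B, with no overlap, and 1233 ± 98.4 against 1333 ± 89.7 in the 2 and 2 mice of litter A. The corresponding log2 fold changes were 0.14 (SE 0.09, adjusted p = 0.804) and -0.11 (SE 0.12, adjusted p = 0.701) by DESeq2. Hmox1 went the other way, at 129 ± 9.58 against 110.3 ± 14.2 in litter A, with no overlap, and 132 ± 32.9 against 153 ± 21.6 in litter B. Keap1 was the higher in iSOD2 hearts of both litters and both sexes, by log2 fold changes of 0.15 in litter A, 0.04 in litter B, 0.07 in males and 0.07 in females, none of them called. Its groups did not overlap in litter A or in females, and overlapped in litter B and in males. The differences between litters were not tested as interactions.

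**Figure D3:**
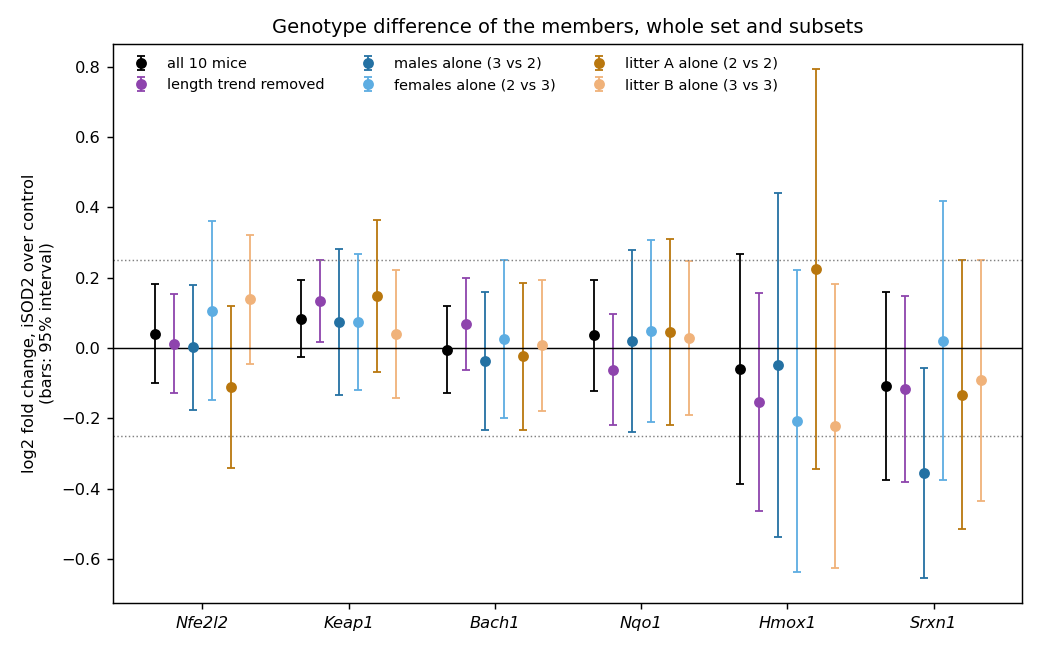
Log2 fold change (iSOD2 over control) of each gene with its 95% interval, from all 10 hearts, after removal of the exon length trend, and within each sex and litter. The dotted lines mark 0.25 on either side of 0. The interval spans 0 in every case except Keap1 after removal of the length trend (0.02 to 0.25) and Srxn1 in males (-0.65 to -0.06).

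Sex was compared with genotype in the model. Hmox1 had the largest sex difference of the 6, with a median of 151 normalized read counts in the 5 females (range 121 to 176) and of 120.3 in the 5 males (100.3 to 133). Of the females 4 were above all males, and iSOD2 5 was inside the male range. The means were 150.4 ± 22.8 and 116 ± 13.2 (SD, n = 5 each), and the log2 difference, female minus male, was 0.39 (SE 0.14, 95% interval 0.11 to 0.67, DESeq2 unadjusted p = 0.00616, adjusted p = 0.306). An exact permutation test gave p = 0.0238. The difference did not pass the threshold over all genes, where 0.483% were called and 6.62% had an unadjusted p under 0.05. In none of the 6 members did the sexes separate without overlap, against 1.76% of all genes. The females were the higher on average in both genotypes, at 163 against 118 in controls, without overlap, and 142 against 114 in iSOD2 mice, with overlap. These splits held 2 or 3 mice a group, and the share of all genes without overlap in them was not computed. Sex and litter were uneven, with 4 females and 2 males in litter B and 1 female and 3 males in litter A. With litter in the model the Hmox1 difference was 0.36 (SE 0.16, DESeq2 unadjusted p = 0.0311, adjusted p = 0.806), and within litter B females had 154 ± 24.6 and males 119 ± 19.3. Smooth muscle markers were 0.22 (log2) higher in females (exact permutation p = 0.0635, sums of 5859.8 to 10971 against 5345 to 8062) and macrophage markers 0.11 lower (exact permutation p = 0.341), and their part in the Hmox1 difference was not tested.

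Srxn1 was 0.21 (log2) higher in females (SE 0.13, DESeq2 adjusted p = 0.859), and the other 4 genes differed between the sexes by at most 0.07. Between the litters no member was called, against 3.5% of all genes. The largest litter differences, litter B minus litter A, were 0.24 for Hmox1 (SE 0.16, DESeq2 adjusted p = 0.542) and -0.08 for Bach1 (SE 0.06, adjusted p = 0.617). Bach1 had 1369 ± 86.6 normalized read counts in 6 hearts of litter B and 1452 ± 51.7 in 4 of litter A, with overlap.

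Whether the genes varied together over the 10 hearts was described for the 15 pairs, on log2(normalized count + 1). Hmox1 and Srxn1 gave the highest Pearson's r, 0.65 (permutation p = 0.0449, Benjamini-Hochberg 0.648) with Spearman's rho of 0.53 (permutation p = 0.124). It rested on control 4 and iSOD2 10, the highest 2 hearts in both genes, since r was 0.17 over the other 8. After genotype and sex were fitted out r was 0.53 for Hmox1 and Srxn1, 0.62 for Nqo1 and Srxn1 and 0.59 for Nqo1 and Hmox1. Nqo1 and Srxn1 gave r of 0.50 over the 10 hearts (permutation p = 0.148). Without iSOD2 7 and iSOD2 10, the 2 hearts farthest from the median in Nqo1, r for that pair was 0.83. With 5 hearts each the genotypes held too few for an r of their own. Of the 15 pairs 11 were positive, 1 had an unadjusted p under 0.05, and 0 passed after Benjamini-Hochberg adjustment. Nfe2l2 gave r of 0.44 with Nqo1 (permutation p = 0.209), -0.26 with Hmox1 (0.472) and 0.13 with Srxn1 (0.715), so no joint variation of the factor's RNA with that of its targets was detectable over these 10 hearts. All of these points share the libraries and their scaling.

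For each gene the 3 genes with the most similar pattern over the 10 hearts were found by Pearson's r among the 12145 genes whose mean was 50 normalized read counts or more. These were Eif4e (0.97), Mrpl14 (0.92) and Ppp2r2d (0.92) for Nfe2l2, and Wrap53 (0.96), Pfdn2 (0.94) and Smad6 (0.93) for Keap1. For Bach1 they were Cdkl3 (0.90), 2900097C17Rik (0.90) and Hivep1 (0.89). For the targets they were Ceacam2 (0.85), Agpat1 (0.83) and Trpc4ap (0.83) with Nqo1, Sertad4 (0.95), Olfml2b (0.94) and Txndc5 (0.92) with Hmox1, and Fbxo44 (0.86), Copg1 (0.86) and Ggcx (0.84) with Srxn1. No gene was among the nearest 3 of more than 1 member. They were chosen as the highest of 12145 values over 10 hearts, and are a description with no test.

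The regulators and partners of NRF2 were described from a list of 14 genes, all of them tested. Of the 13 that received an adjusted p none was called, which was near the background of 2.96% of all genes. Fold changes were above 0 in 8 and below in 6, and the median was 0.016 (log2) against -0.0016 over all genes. At an unadjusted p under 0.05 (DESeq2), 3 of the 14 passed, against 13.2% of all genes. Syvn1 encodes the ubiquitin ligase HRD1, which acts on NRF2 outside the KEAP1 route. Its log2 fold change was the lowest of the list (-0.28, SE 0.10, DESeq2 adjusted p = 0.0615), with 283 ± 24.1 normalized read counts in controls and 234 ± 20.2 in iSOD2 hearts. Rbx1, the RING subunit of the ligase that KEAP1 uses, had 728 ± 33.3 and 857 ± 61.5 (log2 fold change 0.23, SE 0.07, DESeq2 adjusted p = 0.0141). It passed the adjusted p, as did 6.08% of all genes, and missed the fold threshold. It had an adjusted p of 0.106 by edgeR and of 0.283 by DESeq2 after removal of the length trend, and its exon length is 1648 bases. Maff, a small MAF partner, was at 0.19 (log2, SE 0.16, no adjusted p), and Sqstm1, whose product p62 draws KEAP1 into autophagy, was at 0.15 (SE 0.08, DESeq2 adjusted p = 0.291). Cul3, the scaffold of the ligase, was at 0.03 (SE 0.06, DESeq2 adjusted p = 0.832). Single mice moved the count of calls. Without control 4 both Syvn1 (-0.32, DESeq2 adjusted p = 0.0286) and Rbx1 (0.25, DESeq2 adjusted p = 0.0107) were called. Without iSOD2 5 Syvn1 was called, and without iSOD2 7 Rbx1 was. Calls over all genes moved too, from 281 of 9489 genes with an adjusted p to 495 of 10445 without control 4. They were 231 of 8384 without iSOD2 5 and 330 of 10445 without iSOD2 7.

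The 22 other NRF2 target genes were all tested, and 20 received an adjusted p. Of them 1 was called higher in iSOD2 hearts and 0 lower, beside 1.26% of all genes called higher. At an unadjusted p under 0.05 (DESeq2), 7 of the 22 passed, against 13.2% of all genes. Of these, Ephx1, Gsta3, Gsta4, Prdx1, Txn1 and Taldo1 were higher in iSOD2 hearts. Only Txnrd1 was lower (log2 fold change -0.14, SE 0.07, DESeq2 adjusted p = 0.216). Gsta4 was at 0.17 (SE 0.07, DESeq2 adjusted p = 0.0988), and at 0.04 after removal of the length trend. Above 0 were 13 fold changes and below 0 were 9, with a median of 0.03. Ephx1, microsomal epoxide hydrolase, a detoxifying enzyme abundant in liver, was the gene called. It had 909, 807, 728, 869 and 799 normalized read counts in controls and 1023, 945, 1135, 963 and 1029 in iSOD2 hearts, so every iSOD2 heart was above every control. The log2 fold change was 0.31 (SE 0.07, 95% interval 0.16 to 0.45, DESeq2 adjusted p = 0.00334). The call held without any 1 mouse (DESeq2 adjusted p 0.00195 to 0.0313), and it was lost after removal of the length trend (0.22, DESeq2 adjusted p = 0.0952). By edgeR, which called 0 of all genes, Ephx1 was not called either (0.31, edgeR unadjusted p = 0.000549, adjusted p = 0.0766). Within one litter or one sex the fold change was 0.22 to 0.35 and was not called (lowest DESeq2 adjusted p 0.133, in litter B). Hepatocyte markers rose with genotype too, by the sums given above. By mouse, in the order of the Ephx1 values, the sums were 85.0, 2312, 8594, 5047 and 4864 in controls and 9378, 4263, 11220.4, 8549 and 17945 in iSOD2 hearts. Control 1, with the lowest sum, had the highest Ephx1 of the controls, whereas among iSOD2 hearts mouse 7 was the lowest in both and mice 8 and 10 were the highest pair in both. Their part in the Ephx1 difference was not tested. Without control 1 and iSOD2 10 the log2 fold change of Ephx1 was 0.34 (DESeq2 adjusted p = 0.00895). The hearts kept still had marker sums of 2312 to 8594 in controls and 4263 to 11220.4 in iSOD2 mice.

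The other target genes named by size were not called. Gsta3, an alpha-class glutathione transferase, had 113 ± 45.7 and 210 ± 77.2 normalized read counts (log2 fold change 0.89, SE 0.38, DESeq2 adjusted p = 0.147). Its close paralogs may share reads with it, and it was lowest in control 1 (43.4) and highest in iSOD2 10 (299.7), the same 2 hearts as albumin. Osgin1, an oxidative stress-induced growth inhibitor, had 58.0 ± 23.8 and 73.3 ± 30.2 (0.34, SE 0.31, no adjusted p). The thiol genes Prdx1 (peroxiredoxin) and Txn1 (thioredoxin) had log2 fold changes of 0.22 (SE 0.08, DESeq2 adjusted p = 0.0880) and 0.19 (SE 0.08, adjusted p = 0.121), and 0.11 and 0.07 after removal of the length trend. Without control 4 Prdx1 was called too (0.29, DESeq2 adjusted p = 0.000939), in a fit that called 495 of 10445 genes. The subunits of the enzyme that limits glutathione synthesis, Gclc and Gclm, were at -0.03 (SE 0.08) and -0.0082 (SE 0.14), and the enzymes of NADPH supply, G6pdx, Pgd, Taldo1, Tkt and Me1, lay between -0.13 (G6pdx) and 0.11 (Taldo1), with none called.

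Around HO-1 and BACH1, 12 genes of heme and iron handling were described, all of them tested. None was called, which was near the background of 2.96% of all genes. Fold changes were above 0 in 7 and below in 5, with a median of 0.0083 (log2). At an unadjusted p under 0.05 (DESeq2), 1 of the 12 passed, against 13.2% of all genes. Hpx (hemopexin, a plasma heme scavenger made in liver) had 122 ± 107.8 normalized read counts in controls and 281 ± 169 in iSOD2 hearts, or 1.20 on the log2 scale (SE 0.78, DESeq2 adjusted p = 0.402), and ran from 5.43 in control 1 to 559.9 in iSOD2 10, again the ends of the albumin range. Tfrc, the transferrin receptor, had 7646 ± 2925 and 5713 ± 1612 (-0.42, SE 0.31, DESeq2 adjusted p = 0.4661). Ftl1, the ferritin light chain and an NRF2 target itself, was at 0.19 (log2, SE 0.08, DESeq2 adjusted p = 0.164) and Alas1, the first enzyme of heme synthesis, at -0.09 (SE 0.09, DESeq2 adjusted p = 0.629). Without control 4 Ftl1 was called (0.25, DESeq2 adjusted p = 0.0122), in the fit that called 495 of 10445 genes. Erythroid markers, Alas2 of heme synthesis among them, were 0.51 (log2) lower in iSOD2 hearts (exact permutation p = 0.0476, sums of 39399 to 77387 against 37153 to 55006), and their part in these values was not tested.

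**Figure D4:**
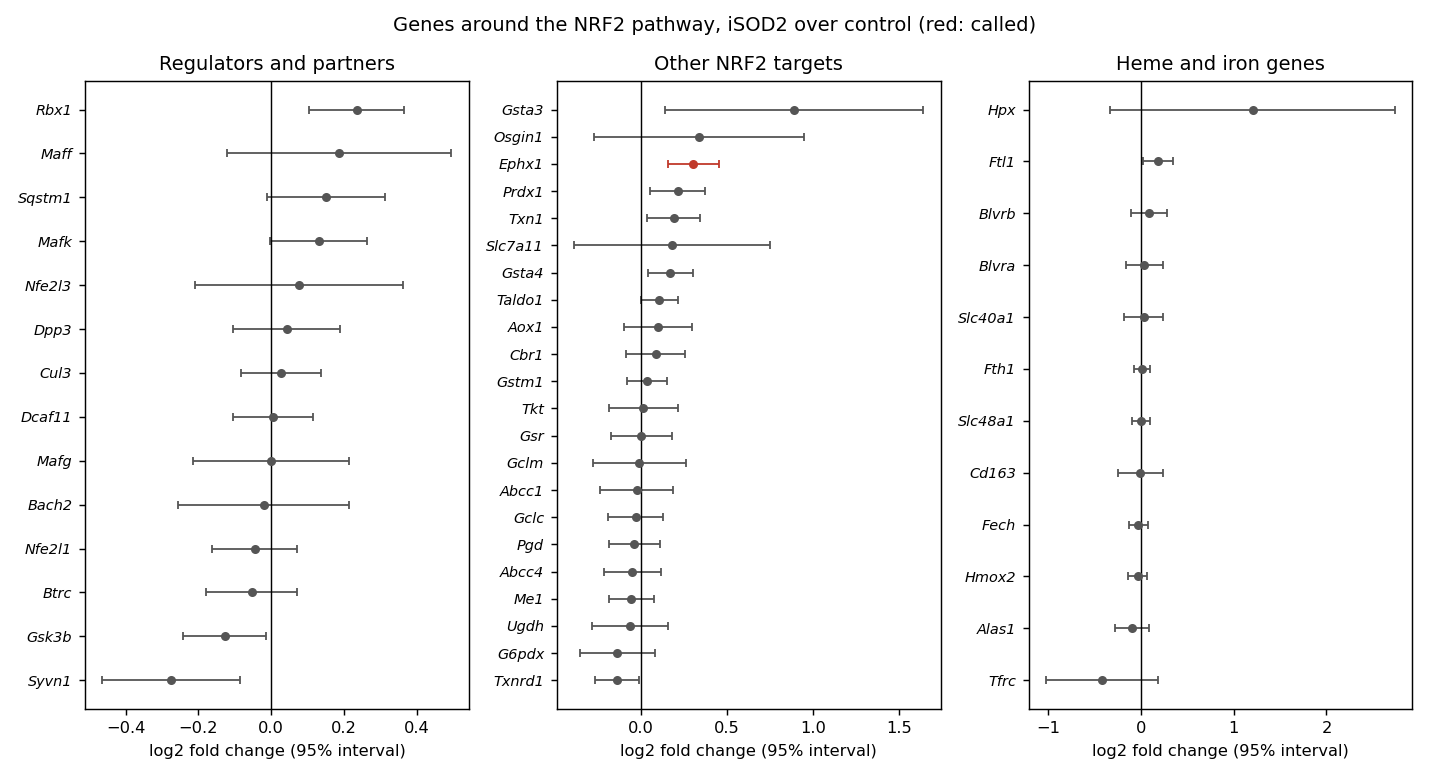
Log2 fold change (iSOD2 over control) with its 95% interval for the regulators and partners of NRF2, for other NRF2 target genes and for genes of heme and iron handling, with red for the gene called. Each panel has its own axis. Ephx1 is the one gene in red, and Gsta3 and Hpx have the largest values and wide intervals.

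Some of these genes held the same motifs in their promoters. Of the 18 other target genes with a RefSeq window, 9 held TGACNNNGC, 5 TGAGNNNGC and 4 TGAGTCA, and of 13 regulators 3, 6 and 0 did. Of 9 heme and iron genes 2, 1 and 0 did. Over all genes the shares were 12.4%, 17.6% and 5.20%, but those are shares of windows, whereas a gene here counted if any of its windows matched. The 18 targets had 24 windows, the 13 regulators 21 and the 9 heme and iron genes 15. No share per gene was computed, so whether these counts exceeded the background was not tested.

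The other cell types that heart tissue holds differed less. Fibroblast markers differed by 0.05 (log2, iSOD2 minus control, exact permutation p = 0.508), endothelial by -0.01 (p = 0.849, exact permutation) and smooth muscle by 0.16 (exact permutation p = 0.198). Macrophage markers, of a cell type rich in HO-1, were at -0.16 (exact permutation p = 0.127), with sums of 5532 to 6949 in controls and 4739 to 6471 in iSOD2 hearts. Lymphocyte (-0.08) and adipocyte (-0.03) markers summed to at most 68.7 and 15.1 normalized read counts in any heart. Their part in the levels of the 6 genes was not tested. Without control 1 and iSOD2 10 none of the 6 genes was called, and of the regulators, other targets and heme and iron genes 0, 1 and 0 were, the same numbers as with them. Leaving out those hearts did not remove the hepatocyte marker difference. The sums in the hearts kept ran from 2312 to 8594 in controls and from 4263 to 11220.4 in iSOD2 mice.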

How the data were processed

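Hearts of 5 control and 5 iSOD2 mice were profiled from total RNA (TruSeq Stranded Total RNA Gold) sequenced on a NovaSeq X Plus. The authors aligned reads to mm10 (GRCm38) with STAR and counted exon reads of 1 transcript per gene with HOMER, so each deposited value is an estimated count (a multiple of 0.5, never normalized), and the other unit deposited is the exon length in base pairs. No strand option was stated for the counting, and no other gene of the table overlapped a member. Libraries held 16448090.5 to 24263085.5 counts, and the intervals between mice include counting error.

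Here counts were rounded to whole numbers, genes with under 10 counts over all libraries were dropped (17746 kept), and DESeq2 1.42.0 (R 4.3.3) was fitted over all genes without covariates, with Benjamini-Hochberg adjustment. A gene was called at an adjusted p of at most 0.05 and an absolute log2 fold change above 0.25, as the study's methods have it. Normalized read counts are counts divided by DESeq2 size factors. Intervals are 95% (1.96 SE). Single values were also tested by two-sided exact permutation on log2(normalized count + 1), and cell type markers by the mean of that value over the list. Sex and litter were tested with genotype in the model. Alternatives were edgeR 4.0.16, limma voom 3.58.1, TMM scaling, other filters, covariates, removal of a per-library trend of counts with exon length (spline with 4 degrees of freedom, genes with a mean of at least 50), subsets, and leaving out each mouse.

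The members and lists were chosen with earlier results of these data known. Beside the members and Sod2, the genes called of each pathway list were named. So were up to 4 of each list with the largest absolute log2 fold change among those averaging 50 or more normalized counts. For each member the 3 genes of highest Pearson's r were named. Cul3, Gclc, Gclm and the NADPH genes were named for their role, after their values were seen. The other target genes with an unadjusted p under 0.05 were also named after their values were seen.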

Additional observations from a re-analysis of the deposited data

Results flagged for a closer look

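Sod2 in control 6 stood below the other 4 controls, at 9562 normalized read counts against 10649.9 to 11019. On the log2(normalized count + 1) scale the gap to the nearest control was 0.76 of the range of the 5 controls, past Dixon's 95% limit for 5 samples. Among 14 groups examined (the 6 members and Sod2 in each genotype) this was the only one past that limit, and chance would give about 0.7.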

How the results depend on the processing

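No paired analysis was possible because the mice of the 2 genotypes are different animals and share no replicate numbers. Litter, which both genotypes shared, was fitted as a covariate instead, and changed no call among the 6 genes. None of the 6 genes was called by genotype in any of 24 alternatives, and their directions held except as follows. Removal of the exon length trend turned Bach1 to 0.067 and Nqo1 to -0.061 (log2). In litter A alone Nfe2l2 was -0.11 and Hmox1 0.22, in litter B alone Bach1 was 0.0078, and in females alone Bach1 was 0.027 and Srxn1 0.021. Without both control 1 and iSOD2 10, Bach1 was 0.0093. Litter A alone and the removal of those 2 libraries were chosen after seeing the data. Leaving out 1 mouse gave log2 fold changes of -0.0043 to 0.083 for Nfe2l2 (below 0 without control 6), -0.040 to 0.026 for Bach1, -0.0067 to 0.080 for Nqo1 and -0.17 to 0.050 for Hmox1. Keap1 was above 0 in all 24, from 0.04 to 0.15. With litter added the sex difference of Bach1 was 0.037, and with sex added the litter difference of Srxn1 was -0.083. The cause of these reversals was not tested, and each had an unadjusted p of 0.316 or higher.

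Over all genes, 281 were called, 0 by edgeR and 0 by limma voom (2723 and 2749 at an unadjusted p under 0.05), 129 after removal of the length trend, 62 in litter B, 121 in litter A, 152 in males, 96 in females, 157 without control 1 and iSOD2 10, and 166 (without control 2) to 495 (without control 4) without 1 mouse. The subsets hold fewer mice, and for the other settings the cause was not tested. Without 1 mouse, 0 to 2 of the regulators, 1 to 2 of the other targets and 0 to 1 of the heme and iron genes were called, the highest in each case without control 4. Other targets called were 0 by edgeR and 0 after removal of the length trend. Hmox1 had the fewest counts of the 6 (83.5 to 179).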
